A study of Mus musculus with 8 samples.

Results

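The genes described here import cystine, make cysteine from homocysteine, and build, reduce or break down glutathione. They are Slc7a11, Cth, Cbs, Gclc, Gclm, Gss, Gsr, Chac1, Chac2 and Ggct, chosen by symbol, and all 10 were rows of a table of 55291 genes. Of these 10, 9 had enough counts to be tested and Cbs did not. RNA was sequenced from CD8+ T cells enriched on magnetic beads from spleens of naïve mice, in 4 libraries titled ATF4 overexpression, with the genotype label ATF4 Tg/Tg (ATF4OE below), and 4 libraries labelled WT. The study's design line gives the mice as ATF4Tg/Tg or E8IcreATF4Tg/Tg, which reads as a transgene without and with the E8I-Cre driver, active in mature CD8+ T cells, so WT is used only as the label gives it. Neither the age of the mice nor whether each library came from its own mouse is given, and the p-values therefore reflect only how these libraries vary, which may be technical.

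Glutathione is a tripeptide of glutamate, cysteine and glycine and the main soluble antioxidant of the cell, and cysteine usually limits its synthesis. Cells obtain cysteine by importing its oxidised dimer, cystine, through the exchanger xCT, or make it from methionine by transsulfuration. T cells depend on outside cystine and cysteine when they are activated, and ATF4 is known to raise cystine import and amino acid synthesis in stressed cells.

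Library totals ran from 93478686 to 125974143 estimated counts. By the library numbers in the labels, replicates 1 and 2 of each group are called set 1 here and replicates 3 and 4 set 2. What, if anything, was done apart for each set is not given. ATF4OE replicates 1 and 2 and WT replicates 1 and 4 held few low values, with 885 to 1054 genes above 0 and below 5 counts, against 1459 to 1858 in the other 4. Levels are CPM, counts per 1e6 of the scaled library size. Atf4 itself was at 445, 427, 228 and 212 CPM in ATF4OE replicates 1 to 4, against 285, 308, 165 and 165 CPM in WT replicates 1 to 4, and the groups overlapped (log2 fold change 0.51 ± 0.31 SE, adjusted p = 0.37). It passed the test with the replicate number as a block (0.48, adjusted p = 2.2e-04). Atf4 was also called within set 1 (0.59, adjusted p = 0.0038) and within set 2 (0.41, adjusted p = 0.0046). Without the 4 libraries with few low values it was at -0.11 (adjusted p = 0.86). That fit keeps ATF4OE replicates 3 and 4, both of set 2, and WT replicates 2 and 3, 1 of each set. In either group Atf4 was higher in set 1 than in set 2, so group and set are mixed there. The 6 CD8 T cell markers summed to 3739 to 3805 CPM in ATF4OE and 4696 to 4848 CPM in WT, and 4 of them fell. All 6 marker lists of other cell types were higher in sum in ATF4OE, with no overlap between the groups. Their sums, in CPM, were 143 to 336 in ATF4OE against 20.8 to 77.1 in WT for myeloid cells, 122 to 329 against 37.2 to 75.9 for B cells, and 162 to 402 against 88.5 to 120 for erythroid cells. They were 68.1 to 82.3 in ATF4OE against 26.7 to 36.7 in WT for platelets, 197 to 332 against 101 to 184 for NK cells, and 19.3 to 36.0 against 4.58 to 14.1 for dendritic cells. Most of the WT sum for NK cells was Eomes (101 CPM in ATF4OE, 104 CPM in WT). Most of that for erythroid cells was Tfrc (83.6 CPM in ATF4OE, 88.0 CPM in WT), and neither gene was called. No marker on these 6 lists was at 0 in all ATF4OE libraries, and the platelet gene Gp9 was the 1 marker at 0 in all WT libraries. Of the tested markers 9 of 14 myeloid, 7 of 10 B cell, 9 of 12 erythroid, 5 of 7 platelet, 4 of 8 NK and 1 of 8 dendritic genes rose and none fell. Their part in the results below was not tested, and in bulk RNA more cells of a type and more RNA per cell cannot be told apart.

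The upstream sequences of Slc7a11 and Chac1 are shown because these genes rose the most among those with a promoter entry, and that of Gclm because it alone of the members differed between the library sets. They are RefSeq promoter windows on GRCm38.p6, the 250 bases before the annotated start, 5′ to 3′ on the gene's strand. Capitals mark matches to the composite element of C/EBP and ATF factors that ATF4 binds (TGATGNAA) or to the core of the antioxidant response element that NRF2 binds (TGACNNNGC), on either strand. Windows were found for 7 of the 10 genes, all but Cth, Gclc and Gsr.
Slc7a11, chr3:50443614-50443863, minus strand: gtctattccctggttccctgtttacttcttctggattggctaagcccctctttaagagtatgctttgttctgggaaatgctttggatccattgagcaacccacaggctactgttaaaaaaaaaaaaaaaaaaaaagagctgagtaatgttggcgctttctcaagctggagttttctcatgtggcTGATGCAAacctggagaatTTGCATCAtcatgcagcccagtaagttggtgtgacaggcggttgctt
Chac1, chr2:119350992-119351241, plus strand: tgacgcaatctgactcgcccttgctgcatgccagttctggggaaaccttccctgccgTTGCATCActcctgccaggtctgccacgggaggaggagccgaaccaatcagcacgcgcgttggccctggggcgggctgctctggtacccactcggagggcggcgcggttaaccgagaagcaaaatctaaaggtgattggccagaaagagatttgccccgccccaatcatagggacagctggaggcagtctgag
Gclm, chr3:122245307-122245556, plus strand: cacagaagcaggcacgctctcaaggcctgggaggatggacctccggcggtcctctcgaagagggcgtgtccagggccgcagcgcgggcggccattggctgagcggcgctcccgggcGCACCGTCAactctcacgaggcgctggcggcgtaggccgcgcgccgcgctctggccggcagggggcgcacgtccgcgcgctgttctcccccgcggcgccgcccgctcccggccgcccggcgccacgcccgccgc

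The Slc7a11 window held 2 composite elements that face each other, TGATGCAA at -66 to -59 and TTGCATCA at -47 to -40, counted from the annotated start. Chac1 held 1, TTGCATCA at -193 to -186. No other window of the 7 held one, and 3.97% of all 32851 windows of 300 bases (250 before and 50 after the start) do. The antioxidant core was matched once in Gclm, at -134 to -126, and in Ggct at -174 to -166 and, just after the start, at 6 to 14, where 12.4% of all windows hold it. The patterns do not overlap in these windows, and a match describes letters, not binding.

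Among the 9 tested genes, 3 rose in ATF4OE (Slc7a11, Cth and Chac1), 1 fell (Ggct) and 5 did not pass the test. Over all 16630 tested genes, 9.16% rose and 4.89% fell (edgeR, adjusted p below 0.05). The same 3 genes had every ATF4OE library above every WT library, as 13.3% of all tested genes did, and Ggct had every ATF4OE library below, as 8.66% did. The median log2 fold change was 0.33 over the 9 genes and -0.02 over all tested genes. The replicate block also gave 3 higher and 1 lower, where 13.7% of all genes were higher and 13.5% lower.

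**Figure D1:**
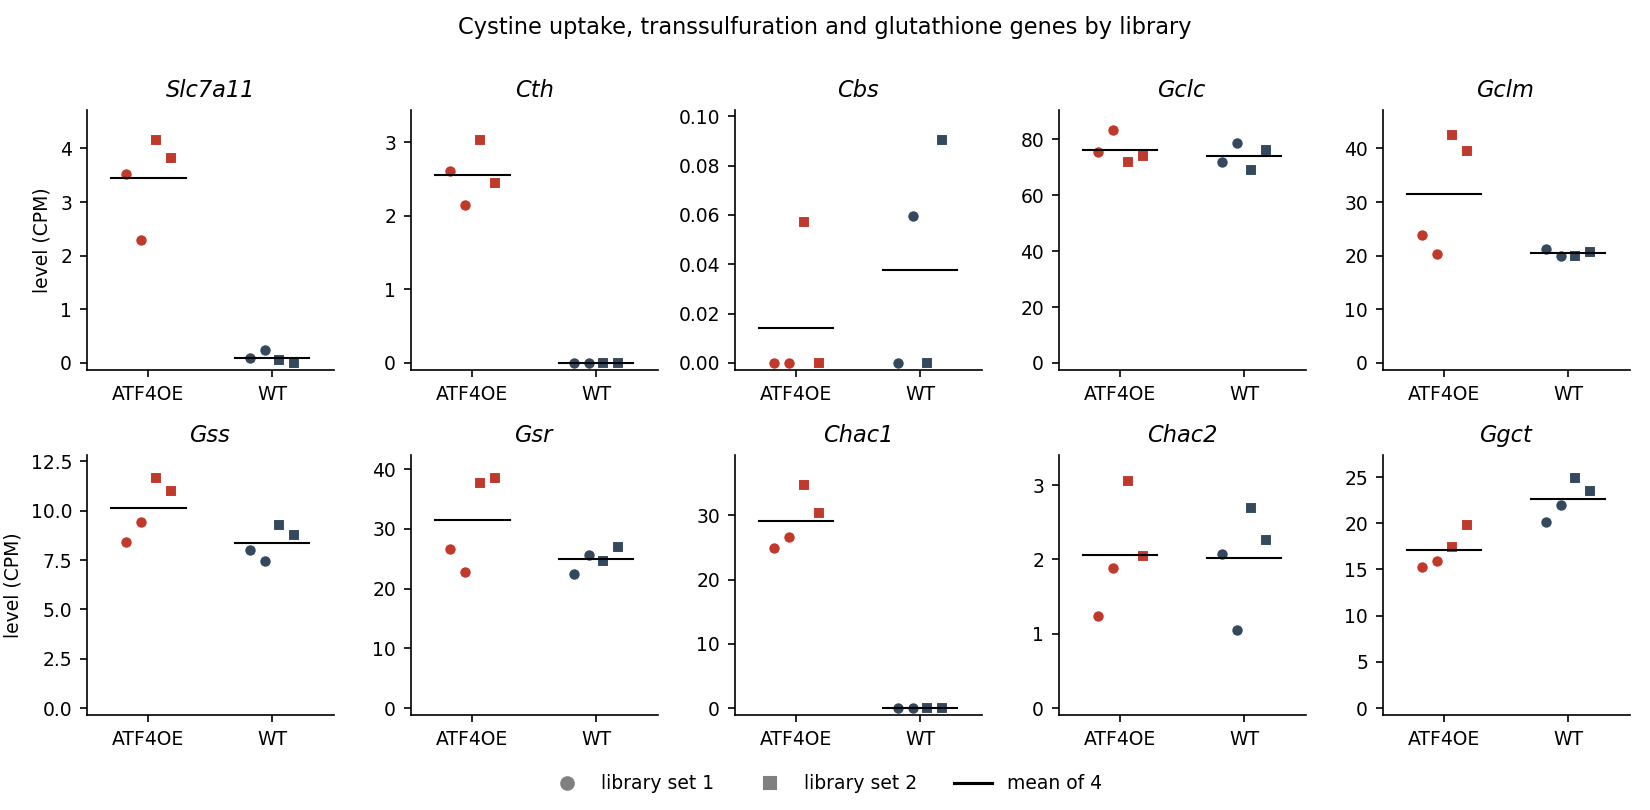
Level in CPM of each of the 10 genes in every library, ATF4OE left and WT right, with circles for library set 1, squares for library set 2 and a line at the mean of 4. Slc7a11, Cth and Chac1 separate the groups by a wide gap near 0 in WT, Ggct lies lower in ATF4OE, and Gclm and Gsr are high only in the 2 ATF4OE libraries of set 2.

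Of the genes that supply cysteine, Slc7a11 and Cth rose in ATF4OE and were at or near 0 in WT, and Cbs was near 0 in each group. Slc7a11, the transport subunit of xCT (chromosome 3, 49892526 to 50443614, minus strand, GRCm38), was at 3.52, 2.29, 4.16 and 3.82 CPM in ATF4OE replicates 1 to 4, against 0.0904, 0.238, 0.0584 and 0 CPM in WT replicates 1 to 4. Every ATF4OE library stood well above every WT library, and the WT values rest on 39 counts in all. The log2 fold change was 5.16 ± 0.86 (SE, edgeR, adjusted p = 0.0033), with 4.15 (adjusted p = 0.0045) within set 1 and 7.05 (adjusted p = 0.0022) within set 2. Set 2 minus set 1 was 2.93 on the log2 scale and did not pass the test of that difference (adjusted p = 0.31). Without the 4 libraries with few low values the estimate was 4.76 (adjusted p = 0.016). Leaving out WT replicate 2, the WT library with the most Slc7a11 counts, gave a log2 fold change of 6.14 (adjusted p = 0.0032). Slc3a2, the heavy chain that xCT shares with other amino acid exchangers, is no member and was abundant in both groups, at 397 ± 18.5 CPM in ATF4OE and 109 ± 6.31 CPM in WT (SD, n = 4). It rose by 1.87 ± 0.07 on the log2 scale (adjusted p = 2.9e-07). In counts it exceeded Slc7a11 by 88.9 to 180 times in ATF4OE libraries and by 494 to 1805 times in the 3 WT libraries with a Slc7a11 count.

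Cth, cystathionine gamma-lyase, releases cysteine in the second step of transsulfuration (chromosome 3, 157894248 to 157925077, minus strand). It was at 2.61, 2.15, 3.04 and 2.44 CPM in ATF4OE replicates 1 to 4, against 0 counts in each of the 4 WT libraries. A total of 0 allows up to 3 counts over the group, or 0.00697 CPM, so by this floor Cth was at least 369.8-fold higher in ATF4OE (fitted test, adjusted p = 8.2e-05). The floor is set on counts pooled over the group and covers counting error only, not variation between libraries. The ATF4OE values spread little, with an SD of 0.370 CPM, and lay in one range in both library sets.

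Cbs, cystathionine beta-synthase, joins homocysteine to serine in the step before Cth (chromosome 17, 31608894 to 31637238, minus strand). It had 7 counts in ATF4OE, all in replicate 3, against 17 counts in WT, of which 6 were in replicate 2 and 11 in replicate 4. The other 5 libraries were at 0, the gene did not pass the filter on low counts, and no difference was detectable at this level. The transsulfuration enzymes thus gave unlike readings in ATF4OE: Cth had 1218 counts over the 4 libraries where Cbs had 7.

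Of the genes that build glutathione, Gclc, Gclm and Gss, none was called over all 8 libraries. Gclc, the catalytic subunit of glutamate-cysteine ligase, which performs the rate-limiting step (chromosome 9, 77754535 to 77794485, plus strand), was at 75.5, 83.1, 71.7 and 74.0 CPM in ATF4OE replicates 1 to 4, against 71.7, 78.6, 69.1 and 76.2 CPM in WT replicates 1 to 4. The groups overlapped throughout, with a log2 fold change of 0.04 ± 0.07 (SE, adjusted p = 0.80) and a 95% interval of -0.12 to 0.21. Gss, glutathione synthetase, adds glycine in the second step (chromosome 2, 155563181 to 155592810, minus strand). It averaged 10.1 ± 1.47 CPM in ATF4OE and 8.37 ± 0.806 CPM in WT (SD, n = 4), with a log2 fold change of 0.27 and an interval of -0.06 to 0.61 (adjusted p = 0.29). Of its exon bases, 15.4% overlap genes on the opposite strand, among them Acss2, and the strand setting of the counting is not given, so some of its counts may belong to those genes.

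Gclm, the modifier subunit that raises the activity of Gclc (chromosome 3, 122245557 to 122270732, plus strand), split by library set. In set 2 it was at 42.6 and 39.4 CPM in ATF4OE, against 19.95 and 20.6 CPM in WT. In set 1 it was at 23.8 and 20.4 CPM in ATF4OE, against 21.3 and 19.99 CPM in WT. The 4 WT libraries were thus nearly level, and only the ATF4OE libraries of set 2 stood apart. The fit over all 8 libraries gave a log2 fold change of 0.62 ± 0.22 (SE), which was not called (adjusted p = 0.090). With the library set as a term it was called (0.56, adjusted p = 0.034), as it was with DESeq2 (adjusted p = 0.021), and with the replicate block it was not (0.56, adjusted p = 0.092). Without ATF4OE replicate 2 it was called (0.79, adjusted p = 0.019). Within set 2 it was 1.02 (adjusted p = 4.2e-04) and within set 1 it was 0.13 (adjusted p = 0.62). The difference between the sets was 0.92 on the log2 scale and passed its own test (adjusted p = 0.024), as 0.998% of all tested genes did and as no other member did. Counts of Gclc per count of Gclm were 3.18 and 4.07 in ATF4OE libraries of set 1, 1.68 and 1.88 in those of set 2, and 3.37 to 3.93 in the 4 WT libraries. Of the exon bases of Gclm, 4.71% overlap other genes, Gm6061 on the same strand and Gm17494 on the opposite one.

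Gsr, glutathione reductase, returns oxidised glutathione to its reduced form with NADPH (chromosome 8, 33652523 to 33698163, plus strand). In set 2 it was at 37.7 and 38.5 CPM in ATF4OE, against 24.6 and 27.0 CPM in WT. In set 1 it was at 26.6 and 22.9 CPM in ATF4OE, against 22.5 and 25.7 CPM in WT. Like Gclm it was high only in ATF4OE libraries of set 2, and over all 8 libraries it did not pass the test (log2 fold change 0.33 ± 0.16 SE, adjusted p = 0.24). It was called within set 2 (0.56, adjusted p = 0.0045) and not within set 1 (0.07, adjusted p = 0.83), and the difference between the sets of 0.52 did not pass (adjusted p = 0.19). Within set 2 the genes called higher were 5 of the 9 tested, Slc7a11, Cth, Chac1, Gclm and Gsr, where 14.3% of all genes were, and within set 1 they were 3 of 9, where 6.75% were.

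**Figure D2:**
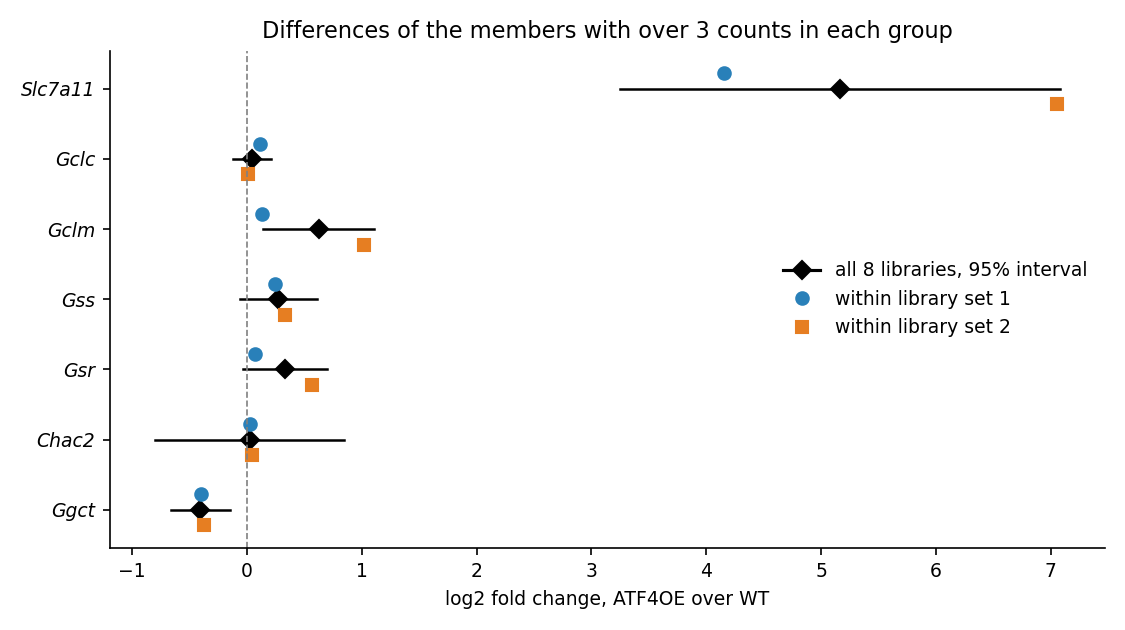
Log2 fold change of ATF4OE over WT for the 7 tested genes with more than 3 counts in each group. Diamonds with a bar are the fit to all 8 libraries with its 95% interval, and circles and squares are the fits within library sets 1 and 2. Slc7a11 lies far to the right in each fit, Gclm and Gsr separate by set, and Gclc and Chac2 lie near 0.

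The summed levels of erythroid and of myeloid markers were also highest in the ATF4OE libraries of set 2. The 12 erythroid markers summed to 402 and 380 CPM in the ATF4OE libraries of set 2, 180 and 162 CPM in those of set 1, and 88.5 to 120 CPM in the 4 WT libraries. Of these 12 markers, 9 rose in ATF4OE and none was at 0 in all libraries. Most of the WT sum was Tfrc, which was not called (83.6 CPM in ATF4OE, 88.0 CPM in WT). Most of the rise lay in Car1 (107 ± 78.5 CPM in ATF4OE, 3.27 ± 0.773 CPM in WT, SD) and Car2 (37.1 ± 16.5 CPM in ATF4OE, 6.40 ± 0.691 CPM in WT). The 14 myeloid markers summed to 325 and 336 CPM in ATF4OE libraries of set 2 and to 149 and 143 CPM in those of set 1, against 77.1 and 71.5 CPM in WT libraries of set 2 and 20.8 and 24.5 CPM in those of set 1. Of these 14, 9 rose. Lyz2, the largest part of the ATF4OE sum at 96.8 ± 74.1 CPM (SD), was not called over all 8 libraries. It was called higher within set 1 (log2 fold change 3.21, edgeR, adjusted p = 3.9e-04) and within set 2 (1.93, adjusted p = 3.3e-05). Single myeloid markers were also compared by fold over WT, which is not the measure used for the sums above. The log2 fold change of Itgam was 3.33 within set 1 and 0.41 within set 2 (edgeR interaction test, adjusted p = 9.8e-05). That of C1qa was 2.54 within set 1 and 3.43 within set 2, a difference that did not pass the same test (adjusted p = 0.68). The platelet markers summed to 82.3 and 78.5 CPM in ATF4OE libraries of set 2 and to 68.1 and 69.6 CPM in those of set 1. The remaining lists ran the other way within ATF4OE. The B cell markers summed to 124 and 122 CPM in ATF4OE libraries of set 2 and to 329 and 226 CPM in those of set 1, the NK cell markers to 197 and 209.6 CPM against 332 and 309 CPM, and the dendritic cell markers to 19.3 and 20.9 CPM against 36.0 and 30.8 CPM. Their part in the levels of Gclm and Gsr was not tested.

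**Figure D3:**
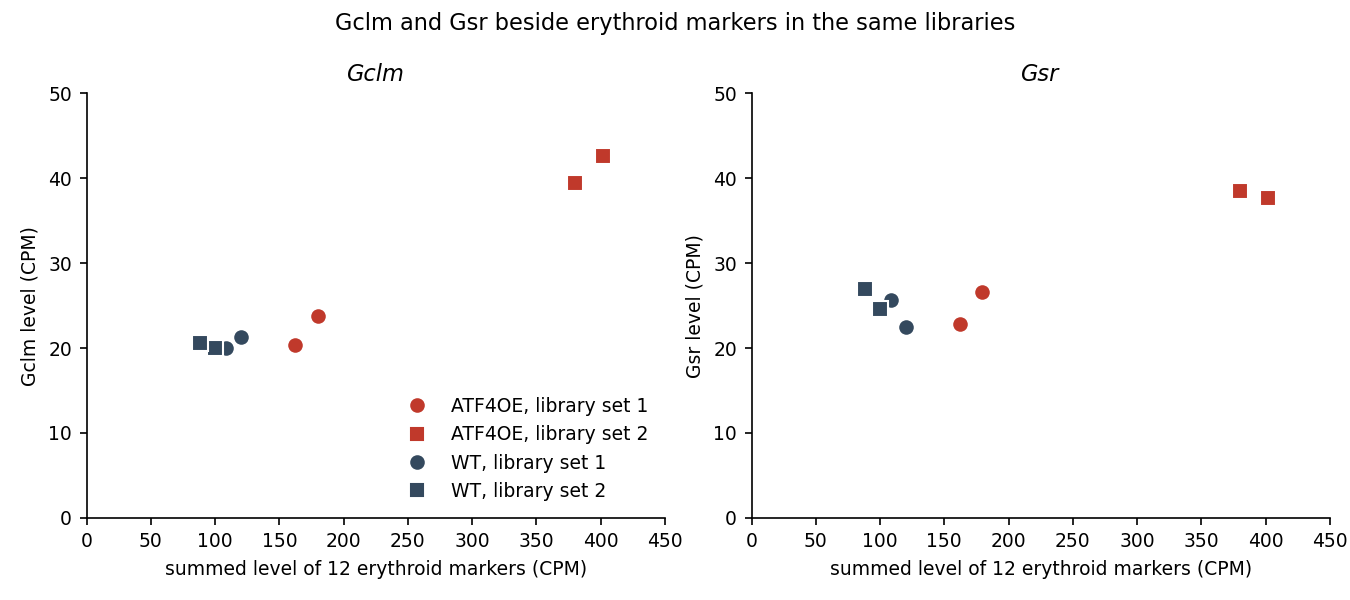
Level in CPM of Gclm (left) and Gsr (right) against the summed level in CPM of 12 erythroid markers in the same library, 1 point per library, red for ATF4OE and dark for WT, circles for set 1 and squares for set 2. The 2 ATF4OE libraries of set 2 lie apart from the other 6 on each axis. The sum includes Tfrc, which did not differ between the groups (83.6 CPM in ATF4OE, 88.0 CPM in WT).

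The 3 gamma-glutamyl cyclotransferases, which release 5-oxoproline, did not move together. Chac1, which cleaves reduced glutathione (chromosome 2, 119351229 to 119354381, plus strand), was at 25.0, 26.7, 34.8 and 30.4 CPM in ATF4OE replicates 1 to 4, against 0, 0, 0.0250 and 0 CPM in WT replicates 1 to 4. The WT value is 3 counts in 1 library, against 13830 counts over the 4 ATF4OE libraries, and the ratio of 4199 has a 95% exact binomial interval of 1437 to 20366, which covers counting error only (fitted test, adjusted p = 2.6e-07). Chac2, its paralog, known as a slower and constitutive enzyme of the same reaction (chromosome 11, 30976707 to 30986350, minus strand), was at 1.23, 1.89, 3.05 and 2.04 CPM in ATF4OE replicates 1 to 4, against 2.08, 1.05, 2.68 and 2.26 CPM in WT replicates 1 to 4. These ranges overlap almost wholly, with a log2 fold change of 0.02 ± 0.37 (SE, adjusted p = 0.98), and the 95% interval of -0.80 to 0.85 is wide.

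Ggct, which acts on gamma-glutamyl amino acids rather than on glutathione (chromosome 6, 54982580 to 54992950, minus strand), was at 15.3, 15.9, 17.4 and 19.8 CPM in ATF4OE replicates 1 to 4, against 20.1, 21.98, 24.9 and 23.5 CPM in WT replicates 1 to 4. Every ATF4OE library was below every WT library, by a narrow margin. It fell by 0.40 ± 0.11 on the log2 scale (SE, adjusted p = 0.042), which lies close to the threshold: the call was lost in 11 of 19 alternatives (adjusted p between 0.0036 and 0.21 over all 19), among them the fits without any 1 of ATF4OE replicates 1 to 3 or WT replicates 2 to 4. With the replicate block it held (adjusted p = 0.0067). The 3 cyclotransferases summed to 41.5 to 55.2 CPM in ATF4OE and 22.2 to 27.6 CPM in WT, and Chac1 held 58.2% to 62.9% of that sum in ATF4OE and at most 0.0906% in WT.

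Divided by the annotated exon length, which allows levels of different genes to be set side by side, Gclc was the most abundant member in either group, at 20.2 CPM per kb in ATF4OE and 19.6 CPM per kb in WT. In ATF4OE Chac1 came next with 17.8 CPM per kb, in a range that overlapped that of Gclc, followed by Gsr (11.4) and Gclm (5.02), each apart from its neighbours. Ggct, Gss, Chac2 and Cth, from 2.21 down to 0.918 CPM per kb, overlapped from neighbour to neighbour, and Slc7a11 (0.248) and Cbs (0.00191) were lowest. In WT the order below Gclc was Gsr (9.06), Gclm (3.25), Ggct (2.92), Chac2 (1.54) and Gss (1.41), where Gclm overlapped Ggct and Chac2 overlapped Gss, and the other 4 genes were at 0.00695 CPM per kb or less and overlapped. Exon length is that of all annotated exons of a gene joined (13922 bases for Slc7a11), so genes with long alternative exons come out low.

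The 6 lists of related genes held 79 genes, of which 68 were tested. Of these 68, 12 rose and 4 fell, or 17.6% and 5.88%, with a median log2 fold change of 0.04, beside 9.16% and 4.89% of all tested genes and a median of -0.02. With the replicate block 15 rose and 10 fell, beside 13.7% and 13.5% of all tested genes. Counts of 1 in 8 to 10 genes in the lists below lie near the share over all genes. In cystine, cysteine and glutathione transport 3 of 9 tested genes rose and 2 fell. Besides Slc3a2 these were Slc1a4, a transporter of alanine, serine and cysteine, at 73.4 ± 2.80 CPM in ATF4OE and 0.758 ± 0.317 CPM in WT (SD, n = 4; adjusted p = 4.0e-07), and Slc1a5, a transporter of glutamine and other neutral amino acids, at 683 ± 51.1 CPM in ATF4OE and 256 ± 8.93 CPM in WT (adjusted p = 2.5e-06). The 2 that fell were Abcc4, an efflux pump that can carry glutathione (-0.33, adjusted p = 0.021), and Slc25a40, a paralog of the mitochondrial glutathione carrier (-0.36, adjusted p = 0.026). Abcc4 was called within set 1 (adjusted p = 0.048) and not within set 2 (adjusted p = 0.13). Slc25a40 was called within neither (adjusted p = 0.098 in set 1 and 0.055 in set 2). Without the 4 libraries with few low values no gene of the 6 lists was called lower.

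Upstream, in the methionine cycle, Mtrr, which reactivates methionine synthase, fell by 0.35 on the log2 scale (adjusted p = 0.025), to 25.8 ± 2.23 CPM in ATF4OE, against 33.0 ± 1.98 CPM in WT (SD, n = 4). Of the enzymes that use or oxidise cysteine 1 of 10 rose, Got1, the cytosolic aspartate aminotransferase, by 0.41 (adjusted p = 0.013). The calls of Mtrr (adjusted p = 0.17) and Got1 (adjusted p = 0.11) were lost without the 4 libraries with few low values. Within set 1 both were lost as well (adjusted p = 0.099 for Mtrr and 0.090 for Got1). That of Mtrr was also lost without any 1 of ATF4OE replicates 1 to 3 or WT replicates 2 to 4 (adjusted p up to 0.073).

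Among enzymes that use glutathione 5 of 24 rose and 1 fell. Gstm1, a glutathione transferase, was at 6.47 ± 1.57 CPM in ATF4OE and 1.66 ± 0.175 CPM in WT (log2 fold change 1.96, adjusted p = 5.0e-04). Gstm5, of the same class, was at 6.64 ± 3.91 CPM in ATF4OE and 0.378 ± 0.334 CPM in WT (adjusted p = 0.0054), and its call was lost within set 1 (2.83, adjusted p = 0.062) and with limma-voom (adjusted p = 0.053). The log2 fold change of Gstm5 was 4.14 over all libraries and 4.84 without WT replicate 1 (adjusted p = 0.0053). Gstt2 fell by 0.42 (adjusted p = 0.018), and the call was lost within set 1 (adjusted p = 0.25) and when the libraries with few low values were left out (adjusted p = 0.13), and also without ATF4OE replicate 4 (adjusted p = 0.060) or WT replicate 3 (adjusted p = 0.056). Mu-class transferases are close paralogs, so reads may be shared between Gstm1 and Gstm5. The peroxidase Gpx4, which uses glutathione to protect membrane lipids, was at 89.4 CPM in ATF4OE and 85.5 CPM in WT and was not called (adjusted p = 0.76; named after its values were seen). In the remaining gamma-glutamyl cycle 1 of 8 rose, the aminopeptidase Anpep, at 0.559 ± 0.0701 CPM in ATF4OE and 0.0175 ± 0.0236 CPM in WT (adjusted p = 0.015), which is also a gene of myeloid cells. Its log2 fold change was 4.88 over all libraries, 5.499 within set 1 (adjusted p = 0.092) and 4.56 within set 2 (adjusted p = 0.054), so within each set the call was lost at a fold of similar size. Leaving out WT replicate 3 gave 6.20 (adjusted p = 0.013). Of 8 tested genes that supply NADPH 1 rose, Nnt, the mitochondrial transhydrogenase, at 31.4 ± 1.99 CPM in ATF4OE and 19.96 ± 1.09 CPM in WT (log2 fold change 0.66, adjusted p = 8.6e-04).

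**Figure D4:**
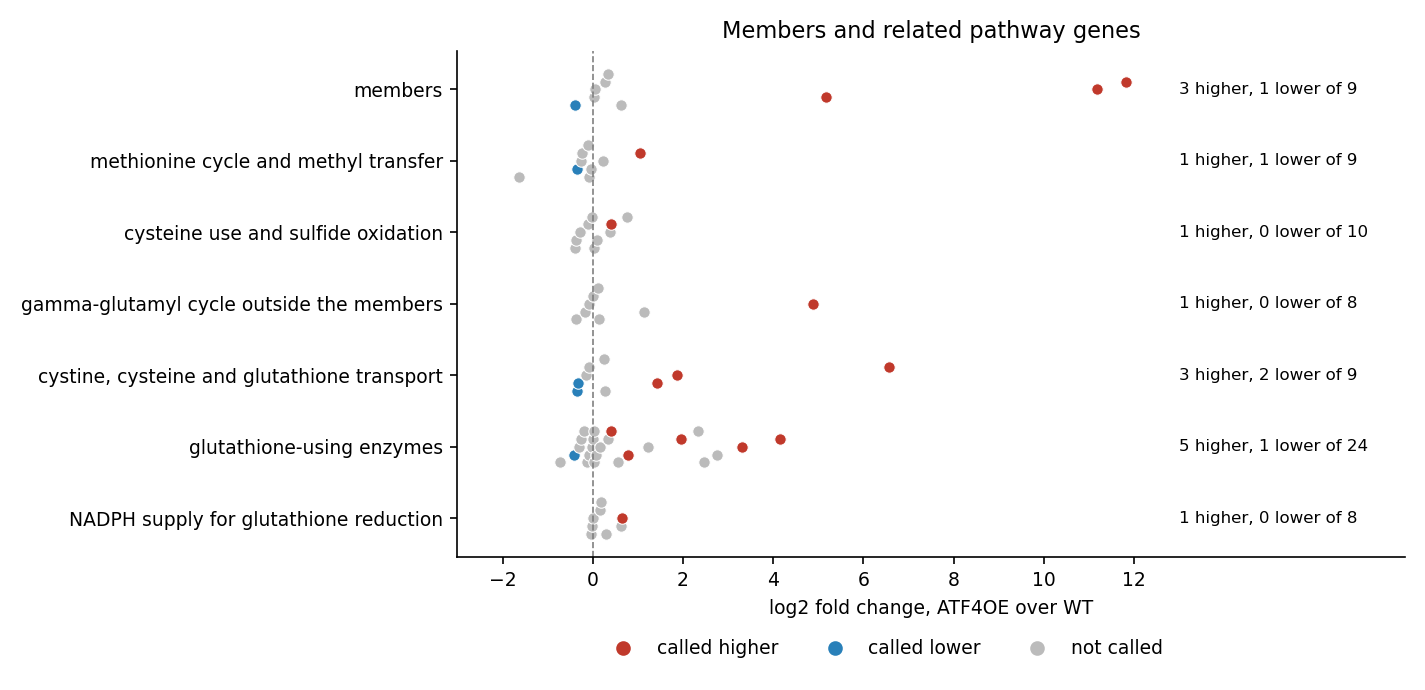
Log2 fold change of ATF4OE over WT for the 9 tested members and the 68 tested genes of 6 related lists, 1 point per gene, red where called higher, blue where called lower and grey where not called, with the counts at the right. The points far right in the top row are Cth and Chac1, whose fitted values depend on how counts near 0 are treated. Most genes of the other rows lie near 0.

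By likeness of profile, measured as the root mean square distance between centred log2 CPM over the 8 libraries, the genes nearest to Slc7a11 were Kel (0.66), the Kell blood group protein of red cells, and Slc38a5 (0.75), an amino acid transporter. Kel was at 4.72 ± 2.67 CPM in ATF4OE and 0.146 ± 0.148 CPM in WT (SD, n = 4), and Slc38a5 at 2.91 ± 1.54 CPM in ATF4OE and 0.0429 ± 0.0715 CPM in WT. Within ATF4OE both were higher in set 2 (6.80 and 7.25 CPM for Kel) than in set 1 (2.73 and 2.11 CPM), and Slc7a11 was higher in set 2 by a smaller step. Nearest to Cth were Cdk15 (0.17), a kinase of the cyclin-dependent family, and 1810053B23Rik (0.33), each at 0 counts in all WT libraries. In WT, Cth and these genes therefore share the value that the prior count sets. Their likeness there is fixed by the zeros, and only the ATF4OE libraries can tell them apart. Nearest to Chac1 were Cox6a2 (0.70), a respiratory chain subunit best known from muscle, and Asns (0.82), asparagine synthetase. Nearest to Ggct were Gimap9 (0.055), a GTPase of lymphocytes, and Eif3h (0.064), a subunit of a translation initiation factor. Distances were smallest for Ggct, whose values varied little between libraries, and the distances of different members cannot be compared directly.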

How the data were processed

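Estimated counts, 1 value per gene symbol and library, were deposited by the authors; Salmon and GRCm38 p6 are named in the submitters' processing notes. Salmon divides shared reads by a model, so reads of paralogs or overlapping genes can move between them. For the annotation release, strand setting and filters the entry is: not given in the sources used here. All columns were matched to samples by library name, with 0 unused. Estimated counts were rounded, scaled by TMM and filtered by filterByExpr, and 16630 genes were tested by the quasi-likelihood test of edgeR 4.0.16 (R 4.3.3). The model held the group alone, and p-values were adjusted by Benjamini-Hochberg over all of them. Standard errors come from the F statistic. Alternatives used DESeq2 1.42.0, limma 3.58.1, other size factors and filters, library sets and left-out libraries. Between libraries of 1 group, chi-square per degree of freedom was at least 38.5, so none was taken as a repeat.

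Replicate numbers were taken from the titles. Deviations from the group means correlated between same-numbered libraries (r = 0.20 to 0.29 in 4 of 4 pairs), and also between libraries of the same set with other numbers (0.16 to 0.25). They were treated as pairs in the replicate block, which is given where it changes a call. Profiles used log2 CPM with a prior count of 2, among genes averaging 1 CPM or more. Positions and exon lengths are from GENCODE M21 on GRCm38, counted from 1. The members, lists and named genes (Atf4, all members, up to 3 called genes of each related list with the smallest p, and the 2 nearest profiles of each called member) were chosen with earlier results of these data known. Protein comparisons were planned but not run, as no protein sequences were used here. A result on the related lists is not reported here.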

Additional observations from a re-analysis of the deposited data

Results flagged for a closer look

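Gclm differed between the library sets in its response: the log2 fold change of ATF4OE over WT was higher in set 2 than in set 1 by 0.916 (edgeR interaction test, adjusted p = 0.024). Chac1 had 0.025 CPM in WT replicate 3, far from the other 3 WT libraries only because these were at 0. Cbs had 0.0572 CPM in ATF4OE replicate 3 for the same reason, 7 counts where the other 3 ATF4OE libraries had 0. By the rule used, about 1 in 20 groups of 4 libraries stands out by chance where values vary continuously. A group with 1 value above 0 and 3 at 0 always stands out, so that rate does not apply to Chac1 and Cbs here.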

How the results depend on the processing

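Slc7a11, Cth and Chac1 kept their call in each of the 18 alternatives in which they could be tested. The stricter filter (10 counts in all 8 libraries) removed them through their WT zeros and so gave 0 members higher. Within set 2 and without the 4 libraries with few low values 5 were higher, with Gclm and Gsr added. Both settings hold the same ATF4OE libraries, replicates 3 and 4, so they are not separate checks of Gclm and Gsr. The replicate block gave 3 higher and 1 lower. For members lower, 0 were called with upper-quartile factors, without a filter on low counts, within set 1, within set 2 and without the libraries with few low values, and 0 to 1 without 1 library (3 to 4 higher). Pathway genes higher were 6 within set 1 and 19 within set 2. Pathway genes lower were 10 with the replicate block, 7 with the library set as a term, 1 within set 1, 0 without the libraries with few low values and 1 to 3 without 1 library. The block changed no call of a member. Atf4 was at 0.48 with the block, 0.48 with the set term, 0.59 within set 1 and 0.41 within set 2, all called, and at -0.11 without the libraries with few low values, where 1 WT library of set 1 and no ATF4OE library of set 1 remain. Gclc and Chac2 lay near 0 and changed sign, Gclc to -0.022 without the libraries with few low values. Without 1 library Gclc ranged from -0.0029 to 0.075 and Chac2 from -0.23 to 0.20. Scaling moved the median of all genes by less than 0.1. Cbs had too few counts in each group to pass the filter on low counts, while for Chac2 the libraries of each group spread widely. Apart from the filter and the smaller numbers of libraries, the cause was not tested.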

Other observations

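Of the 79 related genes 8 had no count in any library, which over all 8 libraries allows a level of up to 0.00332 CPM each. They include Mat1a, Bhmt and Bhmt2, known as liver enzymes of methionine metabolism, Slc7a9, the cystine transporter of kidney, and Me1, the cytosolic malic enzyme. Of the genes of cysteine use and sulfide oxidation, Mpst (17.9 CPM in ATF4OE, 19.2 CPM in WT), Suox (24.5 CPM in ATF4OE, 22.9 CPM in WT) and Nfs1 (29.8 CPM in ATF4OE, 30.1 CPM in WT) were expressed in each group and were not called. All these genes were picked after their values were seen.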
